A study of Bos taurus with 18 samples.

Results

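The miRNAs numbered *bta-miR-11970* to *bta-miR-12070* are recently annotated bovine entries of the miRBase database, and their levels in the plasma of fattening cattle were examined here. Members were taken by name, as every row of the deposited table of CPM-normalized counts (read counts scaled to the size of the library) with a number in that range and any suffix. The range itself was chosen with earlier results of these data known. Of the 1071 miRNAs in the table, 97 were members, numbered from 11971 to 12064. The study drew jugular plasma from the same 3 Japanese Black steers at about 20 months, again at 25 and again at 30 months of age, under one feeding system, and no untreated or other control group was used here. From each 1 mL of plasma a column kit separated an exosomal fraction (EX), RNA carried in extracellular vesicles, from a non-exosomal free-circulating fraction (FC), RNA held outside them. Small RNA sequencing thus gave 18 libraries in 6 groups, with 3 libraries, 1 per steer, in each fraction at each age. The separation rests on the kit alone, and age cannot be told apart from the sampling date or feeding stage that goes with it.

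A miRNA is a short RNA cut from a hairpin precursor, and bases 2 to 8 from its 5′ end, the seed, pair with target mRNAs. In blood, miRNAs circulate inside vesicles or bound to proteins outside them, and they can originate from blood cells or from tissues. Low-numbered miRNAs, such as the liver miRNA miR-122, tend to be abundant and shared among mammals, whereas entries with high numbers come mostly from deep sequencing and few have a known function. No role is stated here for any member for that reason.

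A miRNA was called detected in a fraction where at least 3 of its 9 libraries had more than 5 CPM. By this rule 13 members (13.4%) were detected in EX and 12 (12.4%) in FC, 11 in both and 14 in either. Of the 933 other known miRNAs in the table, 33.4% were detected in EX and 34.9% in FC. Of the 41 candidate miRNAs that the study predicted from its reads, 48.8% were detected in each fraction. The mature sequences of the 14 detected members, as given in the deposited table, are shown with the seed in capitals, since abundance, base composition and likeness to other miRNAs are described from them.
bta-miR-11971: uGAGGGGCagagagugagaa
bta-miR-11972: gGGGCGGGagcggccgggguc
bta-miR-11973: cUUGCUGAgugaccucccugcu
bta-miR-11978: aCUCUUCCcucccucggccggc
bta-miR-11980: aGGCAACGggcuuggcggag
bta-miR-11982: uUCGGCGCcaccacccugcgggu
bta-miR-11986b: uUUUCCAAugaguuaguccuuu
bta-miR-11986c: gAACUGAGuccuuuggaaaaga
bta-miR-11987: cGAGGAAUcucugguggaggu
bta-miR-11991: aUGUUCUGuaucuugauugua
bta-miR-11992: uCCUAGGGgauugacauagucugu
bta-miR-11995: uUGUCCUAcuucucagcugucu
bta-miR-11998: uUCUCUAGuguguuuucccaac
bta-miR-12034: cCCCGGGGagcccggcggu

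No pair of these 14 shared a seed. The seed of *bta-miR-11971* was that of *bta-miR-423-5p*, and the seed of *bta-miR-11972* was that of *bta-miR-2881* and *bta-miR-2900*. Shared seeds were found for 13 of the 97 members (13.4%), against 33.3% of the other known miRNAs. The members had a median length of 22 bases and a median GC content of 55.0%, while the other known miRNAs had a median GC content of 45.8%. The detected members ranged from 28.6% GC in *bta-miR-11991* to 89.5% in *bta-miR-12034* and 90.5% in *bta-miR-11972*. In the RefSeq annotation of the cattle assembly ARS-UCD2.0, 95 of the 97 members had a gene entry and 73 lay within a protein-coding gene. This is not the build that the reads were mapped to, so no coordinates are given. Only positions were compared, without regard to strand, and the share for other miRNAs was not determined. Among the 14 detected members, 11 lay within a protein-coding gene, including *bta-miR-12034* in SNX5, which encodes a sorting nexin of endosomal transport, *bta-miR-11972* in BIRC6, which encodes an inhibitor of apoptosis, *bta-miR-11998* in ZEB1, which encodes a transcription factor, and *bta-miR-11986b* in OCLN, which encodes the tight junction protein occludin. The entry of *bta-miR-11980* lay within BRAT1, *bta-miR-11971* within MEGF11, *bta-miR-11973* within SLC24A3, *bta-miR-11978* within COBLL1, *bta-miR-11982* within LYST, *bta-miR-11991* within OSBPL9 and *bta-miR-11992* within RBM22. For *bta-miR-11986c* and *bta-miR-11995* the enclosing gene was a long non-coding RNA, and *bta-miR-11987* lay in no annotated gene.

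Several members closely resembled other miRNAs, and these sequences are shown because reads could be shared between them. Positions are counted from 1 at the 5′ end, and the partner's base comes first.
bta-miR-423-5p: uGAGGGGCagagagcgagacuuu
bta-miR-11971: uGAGGGGCagagagugagaa
bta-miR-24-3p: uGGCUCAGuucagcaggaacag
bta-miR-11977: uGUCUCAGuucagcaggaag
bta-miR-11986b: uUUUCCAAugaguuaguccuuu
bta-miR-11986: uUGUCCAAugaguuaguccuu

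Against *bta-miR-423-5p*, *bta-miR-11971* carried C15U and C20A over its 20 bases. In the EX libraries *bta-miR-11971* amounted to 0.0127% to 0.197% of the CPM of *bta-miR-423-5p*, and in the FC libraries to 0.0104% to 0.240%. Against *bta-miR-24-3p*, *bta-miR-11977* carried G3U and C20G, and *bta-miR-11986* differed from *bta-miR-11986b* by U3G. The counts of 7 members, *bta-miR-11971*, *bta-miR-11975*, *bta-miR-11976*, *bta-miR-11977*, *bta-miR-11986*, *bta-miR-11986b* and *bta-miR-12005*, were not whole numbers, as occurs when a read is divided among matching miRNAs. Their levels are therefore uncertain to the extent of such shared reads, which was not tested.

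Sequencing depth limited what could be seen of the rarer members. Total miRNA counts were 991354 to 2778618 per EX library and 3615234 to 12088735 per FC library, so that 3 counts corresponded to 1.08 to 3.03 CPM in the former and 0.248 to 0.830 CPM in the latter. At least 1 count was recorded for 38 members in EX (39.2%) and 63 in FC (64.9%), against 55.0% and 73.7% of the other known miRNAs. At 0 in all 18 libraries were 33 members, of 272 such miRNAs in the table. The remaining 50 were counted but not detected, with a maximum of 18 CPM for *bta-miR-11993* in the FC library of steer 2 at 30 months. In EX the third-highest library was at 8.28 CPM for *bta-miR-11978*, just inside the detection rule, and at 4.03 CPM for *bta-miR-11977*, just outside it. In FC these values were 5.25 CPM for *bta-miR-11978* inside the rule and 4.07 CPM for *bta-miR-11993* outside it. For members at 0, presence below these limits was not detectable at this depth. Limits of this kind cover counting error only.

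The number of members with any count was lowest at 30 months in both fractions. An EX library held 20 to 21 of them at 20 months, and this number was 14 to 19 at 25 months and 8 to 11 at the oldest age. An FC library held 39 to 47, then 31 to 43, then 14 to 18. The ranges at 30 months did not overlap those at the younger ages in either fraction. The number of all miRNAs with any count was also lowest at 30 months, at 258 to 296 in EX against 381 to 446 at the younger ages and at 398 to 452 in FC against 582 to 694. Library totals were lowest at 30 months as well in FC, at 3615234 to 4871908 counts. In EX they were 1988408, 991354 and 1082798 counts at 30 months in steers 1, 2 and 3, against 1837454 to 2778618 at the younger ages. The part of these totals in the number of miRNAs counted was not tested. The sum of the lymphocyte markers *bta-miR-150* and *bta-miR-342* was also lower at 30 months, at 13700 to 27500 CPM in EX against 113000 to 325000 at the younger ages, and at 14700 to 26900 CPM in FC against 79400 to 231000. The summed red cell markers (miR-451, miR-486 and miR-144), liver markers (miR-122 and miR-885), muscle markers (miR-1, miR-133a, miR-133b and miR-206) and platelet and myeloid markers (miR-223 and miR-126) overlapped between all ages within each fraction. All 14 rows of these lists were found, and those at 0 in some library were 1 of the 2 liver and 3 of the 4 muscle markers. Red cell markers summed to 10700 to 92200 CPM, liver markers to 12300 to 122000 CPM, muscle markers to 37.5 to 469 CPM and platelet and myeloid markers to 18900 to 73400 CPM over the 18 libraries. What part changes in blood cells had in the 30-month values below was not tested. CPM are shares of a library, so a rise of 1 miRNA and a loss of the rest cannot be told apart.

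Together the 97 members made up 0.0236% to 0.171% of the counts in EX and 0.0239% to 0.0495% in FC. Their summed level in EX was 416, 327 and 236 CPM in steers 1, 2 and 3 at 20 months, 623, 1220 and 1030 CPM at 25 months, and 490, 1190 and 1710 CPM at 30 months. In FC it was 277, 333 and 257 CPM at 20 months, 323, 356 and 239 CPM at 25 months, and 384, 495 and 468 CPM at 30 months. Thus the sums at 25 and 30 months in EX lay above all 3 sums at 20 months, and in FC the sums at 30 months lay above those of both younger ages. Most of the EX sum at 25 months came from *bta-miR-12034*, with 56.8% to 73.4% of it. Without *bta-miR-12034* the EX sums at 25 months were 269, 325 and 306 CPM, within the range of 218 to 382 CPM at 20 months. The higher FC sums at 30 months rested on *bta-miR-11987* in the same way: without it and *bta-miR-12034* they were 266, 284 and 306 CPM, within the range of 214 to 319 CPM at the younger ages.

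**Figure D1:**
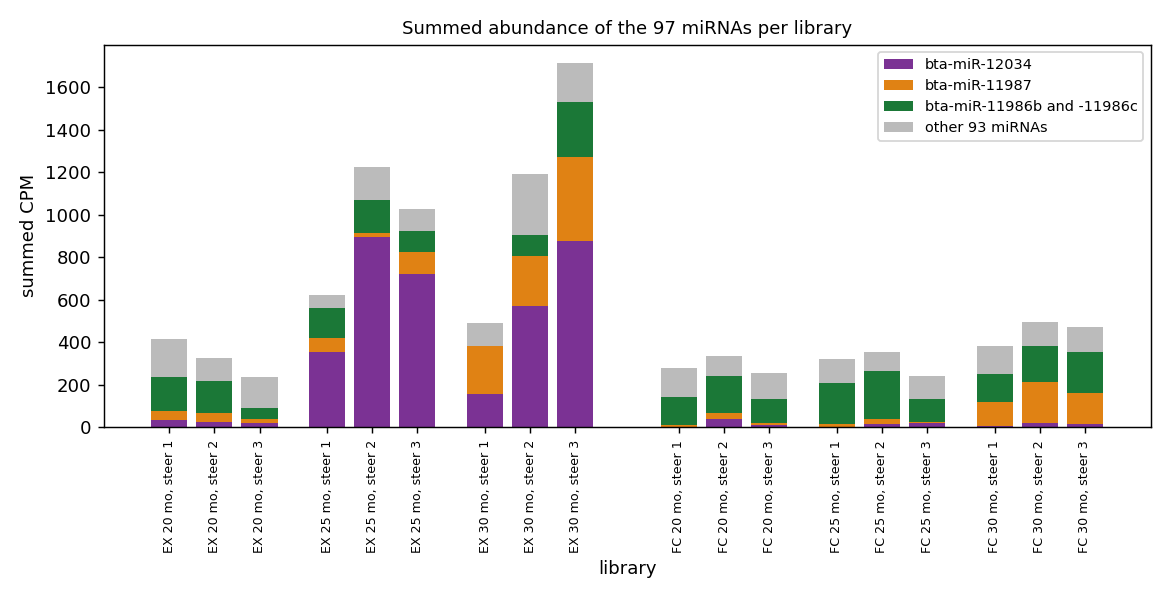
Stacked bars give the summed CPM of the 97 miRNAs (vertical axis) in each library (horizontal axis, fraction, age and steer), split into bta-miR-12034, bta-miR-11987, bta-miR-11986b with bta-miR-11986c, and the other 93. The purple segment, bta-miR-12034, makes up 56.8% to 73.4% of the EX bars at 25 months and is small in all FC bars, and the orange segment, bta-miR-11987, is larger at 30 months in both fractions.

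The member with the highest level, *bta-miR-12034*, rose in EX between 20 and 25 months. In EX it was at 34.1, 26.6 and 18.7 CPM in steers 1, 2 and 3 at 20 months, at 354, 896 and 721 CPM at 25 months, and at 158, 571 and 874 CPM at 30 months. In FC it was at 1.65, 37.7 and 10.7 CPM at 20 months, 2.17, 14.8 and 17.7 CPM at 25 months, and 5.13, 19.6 and 14.5 CPM at 30 months. All 6 EX libraries at 25 and 30 months were above all 3 at 20 months, whereas the FC values overlapped at every age. Within a steer the EX level at 25 months was 10.4, 33.7 and 38.5 times that at 20 months. The mean EX level was 26.5 ± 7.68 CPM (SD, n = 3) at 20 months, 657 ± 277 CPM at 25 months and 534 ± 359 CPM at 30 months.

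Between 25 and 20 months in EX, 1 of 345 miRNAs tested (0.29%) passed an adjusted p under 0.05 with a log2 fold change over 1 in size, and it was *bta-miR-12034*, 1 of 13 members tested. Its log2 fold change was 4.53 (SE 0.61), with an adjusted p = 0.0216 by the quasi-likelihood test of edgeR with Benjamini-Hochberg adjustment, steer being a block. The call was lost without steer 2 (log2 fold change 4.37, adjusted p = 0.822) and without steer 3 (4.15, adjusted p = 0.125). From 20 to 30 months its log2 fold change was 3.66 (SE 0.60, edgeR adjusted p = 0.00726), where 46 of 345 miRNAs (13.3%) and 1 of 13 members were called. This call was lost without steer 2 (3.55, adjusted p = 0.113) or steer 3 (2.94, adjusted p = 0.0677). Over all miRNAs, the 46 calls fell to 2, 0 and 12 without steers 1, 2 and 3. Both comparisons use the same 20-month libraries. Between 30 and 25 months *bta-miR-12034* differed by −0.88 in EX (SE 0.53, edgeR adjusted p = 0.30), and levels at 30 months were lower in steers 1 and 2 and higher in steer 3. In FC its log2 differences were −0.01 (SE 0.79) from 20 to 25 months and 0.29 (SE 0.72) from 25 to 30 months, neither past the test. The red cell, lymphocyte, liver, muscle, and platelet and myeloid marker sums in EX overlapped between 20 and 25 months. What part blood cells or tissues had in the EX rise of *bta-miR-12034* was not tested.

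*bta-miR-12034* was also the member that differed most between the fractions in relation to its error. It was higher in EX than in FC in 8 of the 9 plasma samples, the exception being steer 2 at 20 months. Averaged over the ages its level in EX was 406 ± 368 CPM (SD, n = 9 libraries of 3 steers) against 13.8 ± 11.1 CPM in FC. In the comparison of EX with FC over the 3 ages, with plasma sample as a block, 30 of 330 miRNAs (9.09%) and 2 of 11 members were called. The log2 difference of *bta-miR-12034* was 4.14 (SE 0.50, edgeR adjusted p = 0.000273), and it was called under each of the 11 alternatives tried, with adjusted p-values of 2.26e-24 to 0.0136.

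By age, in contrasts added after the data were seen, EX exceeded FC for *bta-miR-12034* by 1.29 (SE 0.89, edgeR adjusted p = 0.596) on the log2 scale at 20 months, 6.13 (SE 0.93, adjusted p = 0.00272) at 25 months and 4.98 (SE 0.88, adjusted p = 0.0034) at 30 months. Called at these ages were 7 of 330 miRNAs (2.12%) at 20 months and again at 25 months (2.12%), and 45 (13.6%) at 30 months. No member was called at 20 months by edgeR, and 0 were at an unadjusted p under 0.05, against 60 of the 330 miRNAs. The likelihood ratio test and DESeq2 called 0 members at 20 months, and 9 and 8 miRNAs in all. At 25 and 30 months *bta-miR-12034* was the 1 member of 11 called by the quasi-likelihood test. The likelihood ratio test called 1 member at 25 months and 5 at 30 months, and DESeq2 called 2 and 5, *bta-miR-12034* being among them each time. Over all 330 miRNAs these tools called 9 and 83, and 12 and 98, respectively. The second member called by DESeq2 at 25 months was *bta-miR-11987*, and *bta-miR-11973*, *bta-miR-11991* and *bta-miR-11998* were called by both tools at 30 months. The 25-month call was lost without steer 2 (6.39, adjusted p = 0.0518) or steer 3 (6.65, adjusted p = 0.0577), and the 30-month call without steer 3 (4.42, adjusted p = 0.0518). The difference between fractions in the change from 20 to 25 months was itself tested, also as an added contrast. It was 4.84 for *bta-miR-12034* (SE 1.24, unadjusted p = 0.00334 and adjusted p = 0.822, both by the edgeR quasi-likelihood test). No miRNA (0 of 330, 0.0%) and no member was called there by edgeR, with 11 miRNAs and 1 member at an unadjusted p under 0.05. The likelihood ratio test and DESeq2 each called *bta-miR-12034* alone in that contrast, with adjusted p = 0.0291 and 0.000318.

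**Figure D2:**
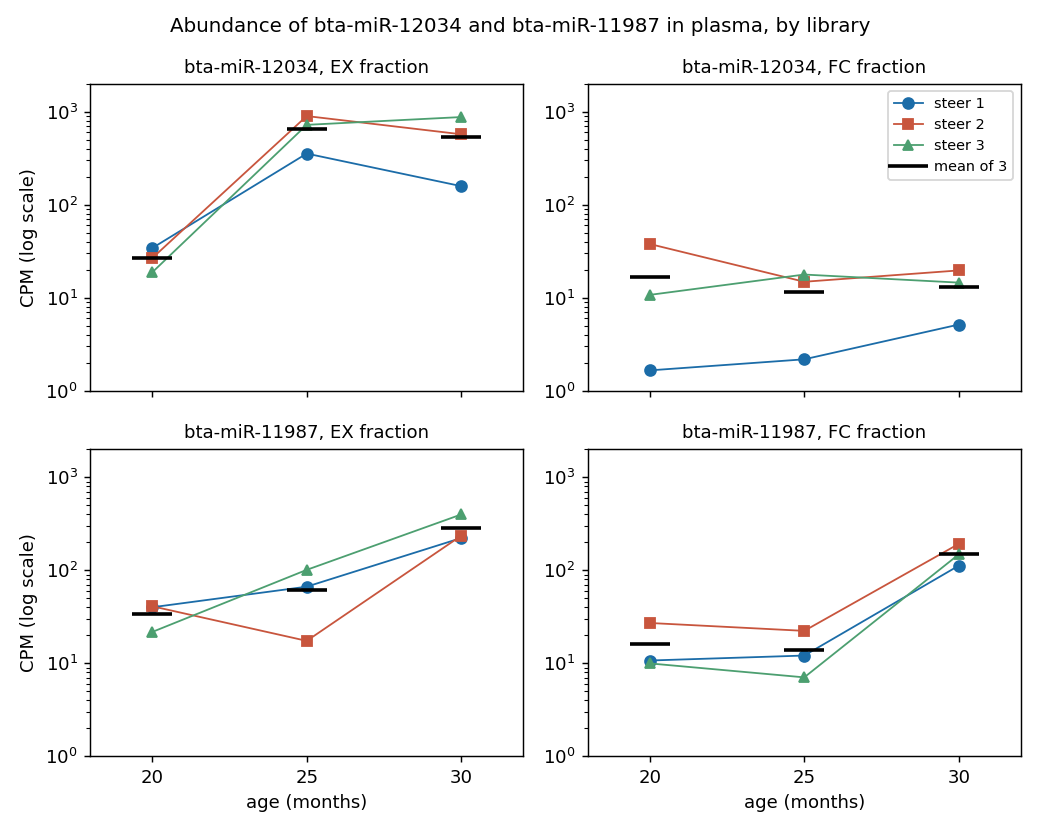
CPM on a log axis against age in months for bta-miR-12034 (top) and bta-miR-11987 (bottom) in EX (left) and FC (right), with 1 symbol and line per steer and a black bar for the mean of 3. In the top row all 3 steers rise in EX between 20 and 25 months, and in the bottom row all 3 rise in FC between 25 and 30 months.

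*bta-miR-11987* was the member that rose in FC at the oldest age. Its FC level was 10.7, 27.1 and 9.96 CPM in steers 1, 2 and 3 at 20 months, 12.1, 22.3 and 7.05 CPM at 25 months, and 112, 192 and 148 CPM at 30 months. Every FC library at 30 months lay above all 6 from the younger ages, and within a steer the level was 9.25, 8.62 and 20.9 times that at 25 months. In EX it was at 40.0, 41.0 and 21.7 CPM at 20 months, 66.6, 17.4 and 101 CPM at 25 months, and 222, 235 and 398 CPM at 30 months. The 3 EX libraries at 30 months likewise lay above the other 6, while those at 20 and 25 months overlapped.

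Between 30 and 25 months in FC, 56 of 358 miRNAs (15.6%) and 1 of 12 members were called. The log2 fold change of *bta-miR-11987* was 3.47 (SE 0.39, edgeR adjusted p = 0.00133), while the median over all 358 miRNAs was −0.20. The 56 calls over all miRNAs became 1, 54 and 1 without steers 1, 2 and 3. The call was lost without steer 1 (3.60, adjusted p = 0.0657) or steer 3 (3.21, adjusted p = 0.0552). Between 30 and 20 months in FC, 25 of 358 miRNAs (6.98%) and 1 of 12 members were called, with a log2 fold change of 3.38 for *bta-miR-11987* (SE 0.38, edgeR adjusted p = 0.00161). That call was lost without steer 1 (3.29, adjusted p = 0.11), and the 25 calls over all miRNAs fell to 1, 5 and 10 without steers 1, 2 and 3. Both comparisons use the same 30-month libraries, in which the lymphocyte markers were low. In EX the log2 differences of *bta-miR-11987* were 1.78 from 25 to 30 months (SE 0.81, edgeR adjusted p = 0.178) and 2.52 from 20 to 30 months (SE 0.83, edgeR adjusted p = 0.0872), neither past the test. The second was called without the steer block (2.69, adjusted p = 0.0344), by the likelihood ratio test (2.53, adjusted p = 0.0301) and by DESeq2 (2.61, adjusted p = 0.00492), and was not called with any 1 steer left out (adjusted p = 0.113 to 0.308). The change from 25 to 30 months in EX minus that in FC was −1.42 (SE 1.10, edgeR adjusted p = 0.455), so that a difference between the fractions in this change was not shown.

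Between the fractions, *bta-miR-11987* was higher in EX in 8 of the 9 plasma samples, the exception being steer 2 at 25 months. The EX mean was 127 ± 131 CPM and the FC mean 60.1 ± 71.0 CPM (SD, n = 9). The log2 difference was 1.29 (SE 0.44, edgeR adjusted p = 0.0574), just short of the threshold, and was past it with steer alone as the block (1.43, adjusted p = 0.0322) and with no block (1.33, adjusted p = 0.0311). It was 1.86 without steer 2 (edgeR adjusted p = 0.0147), but 1.10 without steer 1 (adjusted p = 0.32) and 0.84 without steer 3 (adjusted p = 0.315). The adjusted p over all 11 alternatives ranged from 0.00182 to 0.32.

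The 2 members detected in EX alone were *bta-miR-11972* and *bta-miR-11980*. In EX *bta-miR-11972* was at 11.2, 6.48 and 0.493 CPM in steers 1, 2 and 3 at 20 months, 1.78, 18.5 and 8.21 CPM at 25 months, and 44.8, 6.05 and 50.8 CPM at 30 months. In FC it was at 0 in 3 libraries and reached at most 1.52 CPM, and it was higher in EX in all 9 plasma samples. The EX values at the 3 ages overlapped, and the log2 difference from 25 to 30 months was 1.47 (SE 1.85, edgeR adjusted p = 0.683).

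In EX *bta-miR-11980* was at 22.9, 20.5 and 23.2 CPM at 20 months, 0, 21.8 and 11.9 CPM at 25 months, and 1.01, 222 and 71.1 CPM at 30 months. Its level at 20 months thus varied little among steers, at 22.2 ± 1.47 CPM (SD, n = 3), whereas at 30 months steers 1 and 2 stood far apart. In FC it was between 0 and 3.05 CPM in 8 libraries and at 10.2 CPM in that of steer 2 at 30 months, the plasma sample with the highest EX level. It was higher in EX in 8 of the 9 plasma samples. The log2 difference from 25 to 30 months in EX was 2.42 (SE 1.64, edgeR adjusted p = 0.368).

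Both miRNAs are set apart here because they passed the detection rule through EX alone, so the difference between fractions follows from that choice and is given as a description. The FC libraries held at most 11 counts of *bta-miR-11972*.

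*bta-miR-11986b* and *bta-miR-11986c* were abundant in both fractions and were called in no comparison by edgeR or DESeq2. In FC *bta-miR-11986b* was at 95.4, 146 and 99.1 CPM in steers 1, 2 and 3 at 20 months, 173, 206.4 and 72.1 CPM at 25 months, and 82.3, 155 and 156 CPM at 30 months. In EX it was at 146, 119 and 16.3 CPM, 134, 142 and 72.0 CPM, and 0, 62.5 and 216 CPM at the same ages. The groups overlapped throughout, and the EX library of steer 1 at 30 months had no count in a total of 1988408 while the FC library of the same plasma had 82.3 CPM. *bta-miR-11986c* showed the same absence in that library, and otherwise had EX levels of 8.0 to 40.6 CPM and FC levels of 11.2 to 51.3 CPM. The log2 differences between EX and FC were −1.09 for *bta-miR-11986b* (SE 0.73, edgeR adjusted p = 0.285) and −0.60 for *bta-miR-11986c* (SE 0.85, edgeR adjusted p = 0.62). In FC *bta-miR-11986b* was the steadiest of the 14 detected members, with a coefficient of variation of 35% over the 9 libraries.

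**Figure D3:**
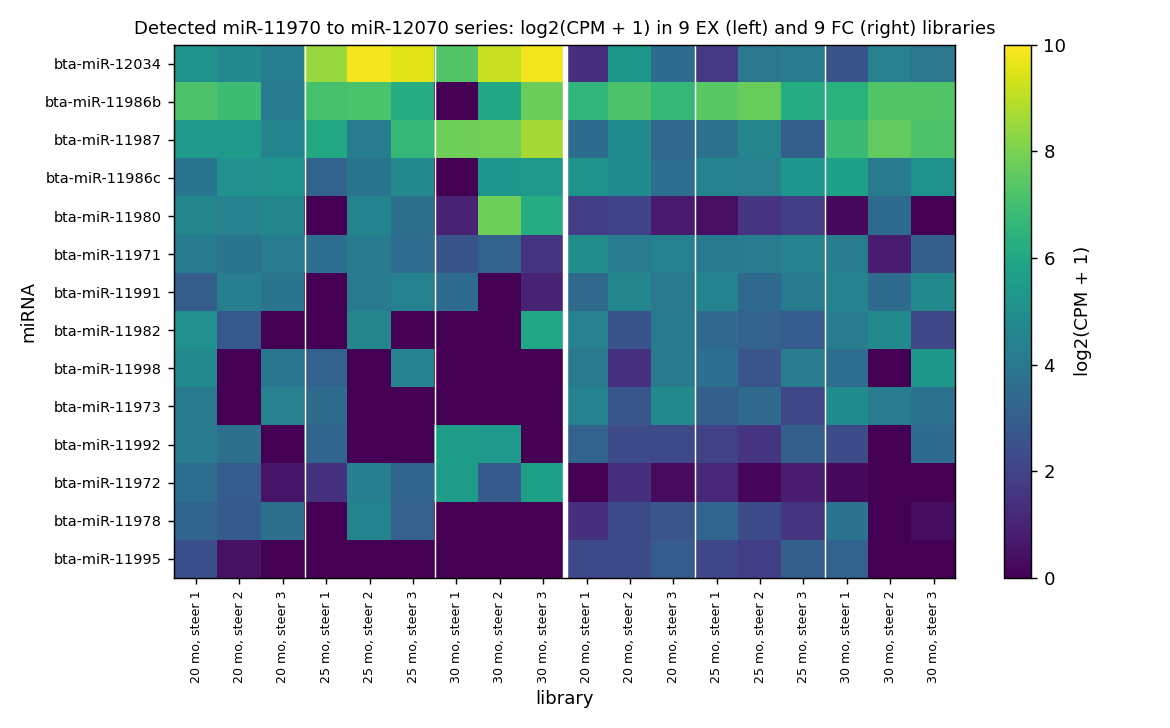
Each row is 1 of the 14 detected miRNAs, ordered by mean level, and each column 1 library, with 9 EX libraries left of the thick line and 9 FC libraries right of it, and colour gives log2(CPM + 1). The darkest cells are libraries at 0, which occur for 10 of the 14 in EX and 6 in FC.

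3 members, *bta-miR-11973*, *bta-miR-11978* and *bta-miR-11998*, were at 0 in all EX libraries at 30 months. In EX *bta-miR-11973* was at 17.1, 0 and 19.2 CPM in steers 1, 2 and 3 at 20 months and at 10.7, 0 and 0 CPM at 25 months. The EX levels of *bta-miR-11978* were 8.28, 6.12 and 11.8 CPM at 20 months and 0, 21.8 and 7.39 CPM at 25 months, and those of *bta-miR-11998* were 26.8, 0 and 14.3 CPM and 7.55, 0 and 20.5 CPM. Taking 3 counts per library as the floor, a mean of 2.44 CPM at 30 months, the 30-month level was at least 4.97-fold lower than at 20 months for *bta-miR-11973*, at least 3.59-fold lower for *bta-miR-11978* and at least 5.63-fold lower for *bta-miR-11998*. The last bound was 2.93 without the library of steer 1 at 20 months. Against 25 months the bounds were 1.46 for *bta-miR-11973*, 3.99 for *bta-miR-11978* and 3.84 for *bta-miR-11998*. Each of these rested on 1 library: no bound was left for *bta-miR-11973* without steer 1 at 25 months, and it was 1.51 for *bta-miR-11978* without steer 2 and 1.55 for *bta-miR-11998* without steer 3. None of the 3 was called by the quasi-likelihood test, the edgeR adjusted p-values from 20 to 30 months being 0.204, 0.134 and 0.134. The likelihood ratio test called all 3 from 20 to 30 months, and *bta-miR-11978* and *bta-miR-11998* from 25 to 30 months, whereas DESeq2 called none of them.

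From 25 to 30 months in EX, 49 of 345 miRNAs (14.2%) were called and 0 of 13 members by edgeR. At an unadjusted p under 0.05 there was 1 member, *bta-miR-11998*, against 102 of the 345 miRNAs. The likelihood ratio test called 2 members and 90 miRNAs in all, and DESeq2 0 and 85. The 49 calls over all miRNAs fell to 18, 0 and 1 without steers 1, 2 and 3. The members' median log2 difference was −0.88, or −0.55 with the 3 members at 0 set to their bounds, with 5 positive and 8 negative, beside a median of −0.51 over all 345. For the change from 25 to 30 months in EX minus that in FC, 16 of 330 miRNAs (4.85%) and 0 of 11 members were called by edgeR, with 1 member, again *bta-miR-11998*, at an unadjusted p under 0.05 against 72 of the 330. The likelihood ratio test and DESeq2 called 1 and 0 members there, and 35 and 41 miRNAs in all. Those 16 calls over all miRNAs became 0, 0 and 11 without steers 1, 2 and 3. In FC from 20 to 25 months 0 of 358 miRNAs (0.0%) and 0 of 12 members were called by edgeR, and 0 members by the other tools or at an unadjusted p under 0.05, where 13 miRNAs in all stood.

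In FC at 30 months *bta-miR-11973* was counted in all 3 steers, *bta-miR-11998* in 2, and *bta-miR-11978* above the 3-count floor in 1. *bta-miR-11973* was at 19.9, 5.40 and 26.2 CPM in FC at 20 months, 7.25, 9.92 and 3.34 CPM at 25 months, and 28.5, 17.7 and 12.6 CPM at 30 months. It was higher in FC than in EX in 8 of the 9 plasma samples, with 6 of the 9 EX libraries at 0 and none of the FC libraries. It was the second member called between the fractions, with a fitted log2 difference of EX over FC of −4.80 (SE 1.41, edgeR adjusted p = 0.0441). This is no measured fold, since it averages in 30 months, where EX was at 0. The fitted differences were −1.5 at 20 and −3.26 at 25 months, and at 30 months EX was at least 8.04-fold lower than FC, which gives a mean of −2.59 with that bound. The mean levels over the 9 libraries were 5.22 CPM in EX and 14.5 CPM in FC. This call was lost with rows left as deposited (−4.78, adjusted p = 0.056), without the filter (−4.85, adjusted p = 0.0566) and without steer 1 (−6.41, adjusted p = 0.12), steer 2 (−3.88, adjusted p = 0.0963) or steer 3 (−4.75, adjusted p = 0.169). For *bta-miR-11998* the FC levels were 15.4, 1.66 and 15.9 CPM, 11.6, 5.17 and 18 CPM, and 11.1, 0 and 37.9 CPM at the 3 ages, and its fitted log2 difference was −3.68 (SE 1.19, edgeR adjusted p = 0.0574), or −1.55 with the 30-month bound of 6.69-fold, and the likelihood ratio test and DESeq2 called it. For *bta-miR-11978* the FC levels were 1.57, 3.88 and 5.25 CPM, 8.69, 3.88 and 1.99 CPM, and 12.9, 0 and 0.263 CPM, and the fitted log2 difference of −1.91 (SE 1.39, edgeR adjusted p = 0.34) took its sign from the 30-month zeros. With the 30-month bound of 1.80-fold the mean was 0.37, the fitted differences being 1.34 at 20 and 0.61 at 25 months.

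The other 5 detected members were not called by the quasi-likelihood test in any comparison. DESeq2 called *bta-miR-11982* between EX and FC over the 3 ages and at 30 months, and both DESeq2 and the likelihood ratio test called *bta-miR-11991* between the fractions at 30 months. *bta-miR-11971* was counted in all 18 libraries, with EX levels of 1.85 to 18 CPM and FC levels of 0.692 to 29.9 CPM. Its EX levels at 30 months, 5.03, 7.57 and 1.85 CPM, lay below all 6 at the younger ages, which were 10.9 to 18 CPM, and its log2 difference from 20 to 30 months was −2.10 (SE 1.40, edgeR adjusted p = 0.37). *bta-miR-423-5p*, with which it shares its seed and possibly reads, did not follow it, being at 14600 to 22300 CPM in EX at 30 months and at 8400 to 12000 CPM at the younger ages.

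*bta-miR-11991* was in all 9 FC libraries, at 9.63 to 26.8 CPM, and in 7 EX libraries, at up to 20.1 CPM, with a log2 difference of EX over FC of −1.69 (SE 0.93, edgeR adjusted p = 0.201). *bta-miR-11982* was in all 9 FC libraries, at 3.42 to 26.0 CPM, but in EX it was at 0 in 5 and reached 58.2 CPM in steer 3 at 30 months. *bta-miR-11992* was at 0 in 4 EX libraries and at 46.3 and 41.4 CPM in steers 1 and 2 at 30 months, while its FC level did not exceed 10.3 CPM. Their log2 differences of EX over FC were −2.94 (SE 1.93, edgeR adjusted p = 0.276) and 0.19 (SE 2.15, edgeR adjusted p = 0.956). *bta-miR-11995*, detected in FC alone, was at 0 in 2 FC libraries and at up to 8.01 CPM in the others, and in EX it had counts in steers 1 and 2 at 20 months only, at 4.39 and 0.36 CPM.

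By mean level 7 of the 14 detected members were higher in EX and 7 in FC. For *bta-miR-11972* and *bta-miR-11980* in EX and *bta-miR-11995* in FC, the side follows from detection in that fraction alone. The count is therefore given as a description only. Of the 11 members tested between fractions, 3 had positive and 8 negative log2 differences, with a median of −1.09 beside −0.41 over all 330 miRNAs. With the 3 members at 0 in EX at 30 months set to their bounds, 4 were positive and 7 negative, with a median of −0.60. Counts were present in all 9 FC libraries for 8 of the 14, in all 9 EX libraries for 4 and in all 18 for 3, *bta-miR-11971*, *bta-miR-11987* and *bta-miR-12034*. The EX libraries were shallower throughout, so a level of 0 in EX bounds the level less tightly than in FC.

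**Figure D4:**
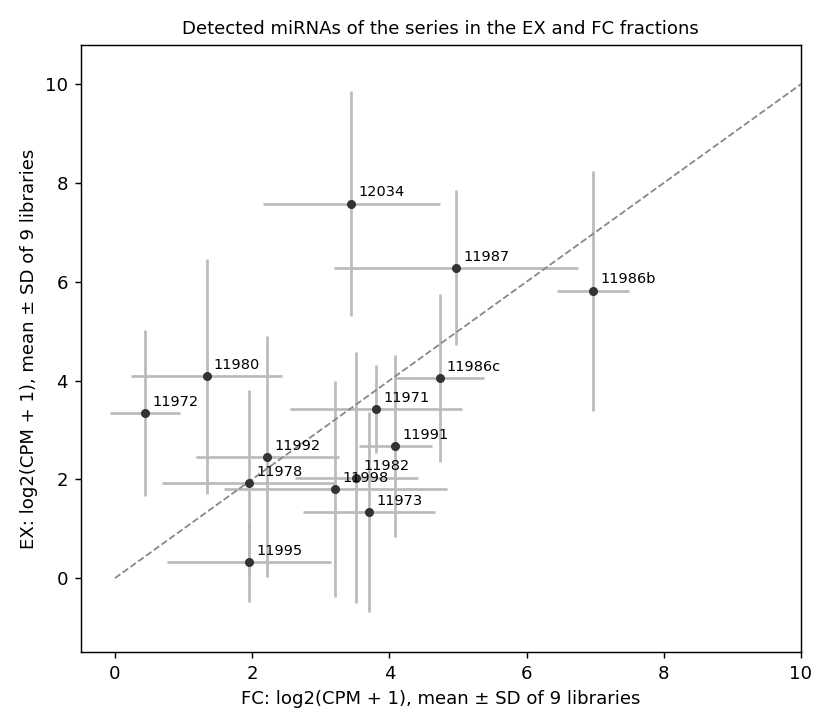
Each point is 1 of the 14 detected miRNAs (numbers as labels), with the mean log2(CPM + 1) over 9 FC libraries on the horizontal axis and over 9 EX libraries on the vertical axis, grey bars of ±1 SD and a dashed line of equality. bta-miR-12034, bta-miR-11980 and bta-miR-11972 stand furthest above the line, and bta-miR-11973 is among those below it. Both bta-miR-11980 and bta-miR-11972 were detected in EX alone, so their side follows from that choice.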

How the data were processed

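Plasma EX and FC small RNAs of 3 steers at 3 ages were sequenced as single-end reads. Per the labels and the study's methods, the authors trimmed reads with Cutadapt 5.0 and Trimmomatic 0.39, checked them with FastQC 0.12.1, and mapped and quantified them with miRDeep2 against a Japanese Black genome and miRBase. The deposited estimated counts, which divide a read among matching miRNAs, and the deposited CPM, which the authors scaled to each library's miRNA total, were used here as given, and levels are in CPM. The mature sequences and their lengths stand in the same deposited table. In 4 FC libraries 356 counts stood on other rows than their CPM and were put back by matching the CPM, and 0 of the members were affected. RefSeq tables gave the neighbouring genes.

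Counts were rounded and tested with edgeR 4.0.16 (R 4.3.3), using TMM normalization, the quasi-likelihood test and Benjamini-Hochberg adjustment over all miRNAs for which at least 3 of a fraction's 9 libraries had more than 5 CPM (345 in EX, 358 in FC, 330 in both). A call needed an adjusted p under 0.05 and a log2 fold change over 1 in size. Standard errors are the log2 fold change over the root of the F statistic. Age comparisons had steer as a block, since the study sampled the same animals at each age and numbered its plasma samples by animal, as the libraries are numbered, and fraction comparisons had the plasma sample. Deviations from the group means correlated at a mean r of 0.025 between libraries of 1 steer and −0.012 between steers in EX, and at 0.12 and −0.06 in FC. Such deviations cancel within a group, so the value between steers follows largely from that within a steer. These values therefore do not test the block. Alternatives were no block, DESeq2 1.42.0 with its size factors or its test, a likelihood ratio test, no filter, rows as deposited, and leaving out each steer. The fits were tested on simulated data. No 2 libraries of 1 group agreed within sampling noise. Total counts per library, 991354 to 12088735, set the precision.

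The named miRNAs were by rule the 14 detected members and any member called. *bta-miR-11975*, *bta-miR-11976*, *bta-miR-11977*, *bta-miR-11986*, *bta-miR-11993* and *bta-miR-12005* were named outside it after their sequences or values were seen, and the others were described by counts and ranges. The members and marker lists were chosen with earlier results of these data known.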

Additional observations from a re-analysis of the deposited data

How the results depend on the processing

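With 3 steers, a call can hang on 1 animal. The likelihood ratio test called 2 members in EX from 25 to 30 months, 5 in EX from 20 to 30 months, 4 between EX and FC, and 1 in the difference between fractions in the change from 25 to 30 months. DESeq2's test called 2 members in EX from 20 to 30 months and 5 between EX and FC. Without the steer as replicate block, 2 members were called in EX from 20 to 30 months. Between EX and FC, 4 members were called with steer as the block in place of the plasma sample, 3 with no block, 4 when miRNAs selected in either fraction were tested (with *bta-miR-11972* and *bta-miR-11980*, whose difference their selection through EX fixes) and 1 with rows as deposited. The choice of replicate block changed no other count of members called in the 6 age comparisons or in the difference between fractions in the change from 25 to 30 months. In the contrasts added later it was examined for *bta-miR-12034* at 25 and 30 months and in the change from 20 to 25 months, and altered none of these calls. Leaving out each steer in turn gave 0 to 1 members called in EX from 20 to 25 and from 20 to 30 months and in FC from 25 to 30 and from 20 to 30 months, and 1 to 3 between EX and FC. Detected members numbered 15 in EX and 22 in FC at over 1 CPM in 3 libraries, 2 and 4 at over 5 CPM in all 9, and 10 to 12 and 9 to 12 with a steer left out. The cause of these shifts was not tested, except that fewer samples or other cut-offs enter by construction. Over all miRNAs, the likelihood ratio test and DESeq2 called 90 and 85 against 49 in EX from 25 to 30 months, 83 and 78 against 46 from 20 to 30 months, 53 and 52 against 25 in FC from 20 to 30 months, 62 and 53 against 30 between fractions, and 35 and 41 against 16 for the difference in change. In that last comparison 26 were called with no block, 25 with steer as block and 6 with no filter. In EX from 20 to 25 months, DESeq2 called 3 and the fit with no filter 2, against 1. With rows as deposited, 21 miRNAs against 56 were called in FC from 25 to 30 months and 2 against 25 from 20 to 30 months, where the fit with no filter called 52. Leaving out each steer in turn gave 0 to 18 calls over all miRNAs in EX from 25 to 30 months, 0 to 12 from 20 to 30 months, 1 to 54 and 1 to 10 in FC over the same spans, 14 to 26 between fractions (14 without steer 1 and 17 without steer 3) and 0 to 11 for the difference in change. None of 13 log2 differences recomputed for *bta-miR-12034*, *bta-miR-11987* and *bta-miR-11973* changed sign under these alternatives.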

Other observations

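Of the 83 members that were not detected, 15 exceeded 5 CPM in at least 1 library, the highest being *bta-miR-11993*. In FC it was at 1.24, 1.52 and 1.07 CPM in steers 1, 2 and 3 at 20 months, 1.55, 2.30 and 4.07 CPM at 25 months, and 0, 18 and 4.21 CPM at 30 months, and in EX it was at 0 in 6 of 9 libraries. The members with the highest GC content, *bta-miR-11975* and *bta-miR-11976*, consist of G and C alone (100%) and are the same over 20 bases, and neither exceeded 1.78 CPM in EX or 0.331 CPM in FC.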
